A study of Danio rerio with 12 samples.

Results

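The genes described here are 45 of the 32057 zebrafish genes counted in primary growth follicles of the ovary, and they share 1 pattern: in wild type and in cdkn1a heterozygotes alike, their RNA was much lower at 8 months post-fertilization (mpf) than at 50 days post-fertilization (dpf). They were picked from the normalized values that the authors deposited, taken as means of the 3 libraries of a group. A gene had to be at least 3-fold higher at 50 dpf than at 8 mpf in each genotype, with each 50 dpf value above each 8 mpf value over all 12 libraries. Its mean in heterozygotes had to lie within 1.5-fold of wild type at 50 dpf, and its 50 dpf mean had to reach 250 normalized units in both genotypes, which is about 5 CPM (the count of a gene relative to its library's total, the unit of most levels below). The age differences and the genotype difference at 50 dpf therefore chose these genes, and they are given below as descriptions, without a test. The rule sets no limit of its own on the difference between the genotypes at 8 mpf, which was tested. That difference is not free of the choice, since it follows from both age ratios and the genotype ratio at 50 dpf. The rule set limits on these ratios, and the 8 mpf values entered it. Counts of that difference therefore describe these genes and support nothing about the group.

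The study asked what losing 1 copy of cdkn1a, which encodes the cell cycle inhibitor p21, does to early follicles. All fish were of the AB strain. Follicles came from wild type (cdkn1a +/+) at 50 dpf and at 8 mpf and from heterozygotes (cdkn1a +/-, called HE below) at the same ages, with 3 RNA libraries in each of the 4 groups. Homozygous mutants die as embryos, per the series description, so that no follicle without a working copy was sampled. The labels do not name the mutant allele, and they do not say whether the 3 libraries of a group came from separate fish, so that p-values measure only the spread between these libraries.

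A primary growth follicle holds an oocyte that enlarges before it takes up yolk, within a layer of somatic follicle cells. The oocyte stores RNA and protein for the embryo, and the somatic cells feed it through gap junctions and later make steroid hormones. Yolk itself comes from vitellogenin, which the liver makes under oestrogen and the blood carries to the ovary, while trypsins, chymotrypsins, elastases and carboxypeptidases are the products of acinar cells of the pancreas.

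Total counts ran from 31044931 to 96839220 per library. Oocyte genes were abundant in all libraries, with a summed level of the 18 listed genes, among them the egg coat gene zp3b and the ovarian growth factor gene bmp15, between 19270 and 69780 CPM. CPM values here are scaled for the composition of each library. The ages were sampled as separate groups and no batch is named, so that age cannot be told apart from a batch of sampling or library preparation. In follicles as a whole, fewer cells of a type and less RNA per cell cannot be told apart either.

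The 45 genes together held 0.783% ± 0.0280 of all counts in wild type and 0.783% ± 0.127 in HE at 50 dpf (mean ± SD, n = 3 libraries). At 8 mpf the share was 0.238% ± 0.0161 in wild type and 0.260% ± 0.0151 in HE. The ratio of the 50 dpf to the 8 mpf normalized mean ran from 3.06 to 32.7 in wild type, with a median of 4.36, and from 3.07 to 12.5 in HE, with a median of 4.22. It was under 5 for 25 of the 45 genes in wild type and for 32 in HE, and it was at least 10 for 6 genes in wild type and for 2 in HE. As a log2 fold change of CPM between ages (8 mpf over 50 dpf), the median was -2.10 in wild type and -2.03 in HE, beside -0.026 and 0.0095 over all 18834 tested genes. Of all tested genes, 26.5 percent were lower at 8 mpf in wild type, 25.5 percent in HE and 16.5 percent in both, at an adjusted p under 0.05 in edgeR's quasi-likelihood test. The adjusted p is the Benjamini-Hochberg value over all tested genes. By the mirrored rule, which sets the 1.5-fold limit and the floor at 8 mpf, 296 genes were higher at 8 mpf in both genotypes. Called higher were 28.7 percent of all tested genes in wild type and 28.5 percent in HE.

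**Figure D1:**
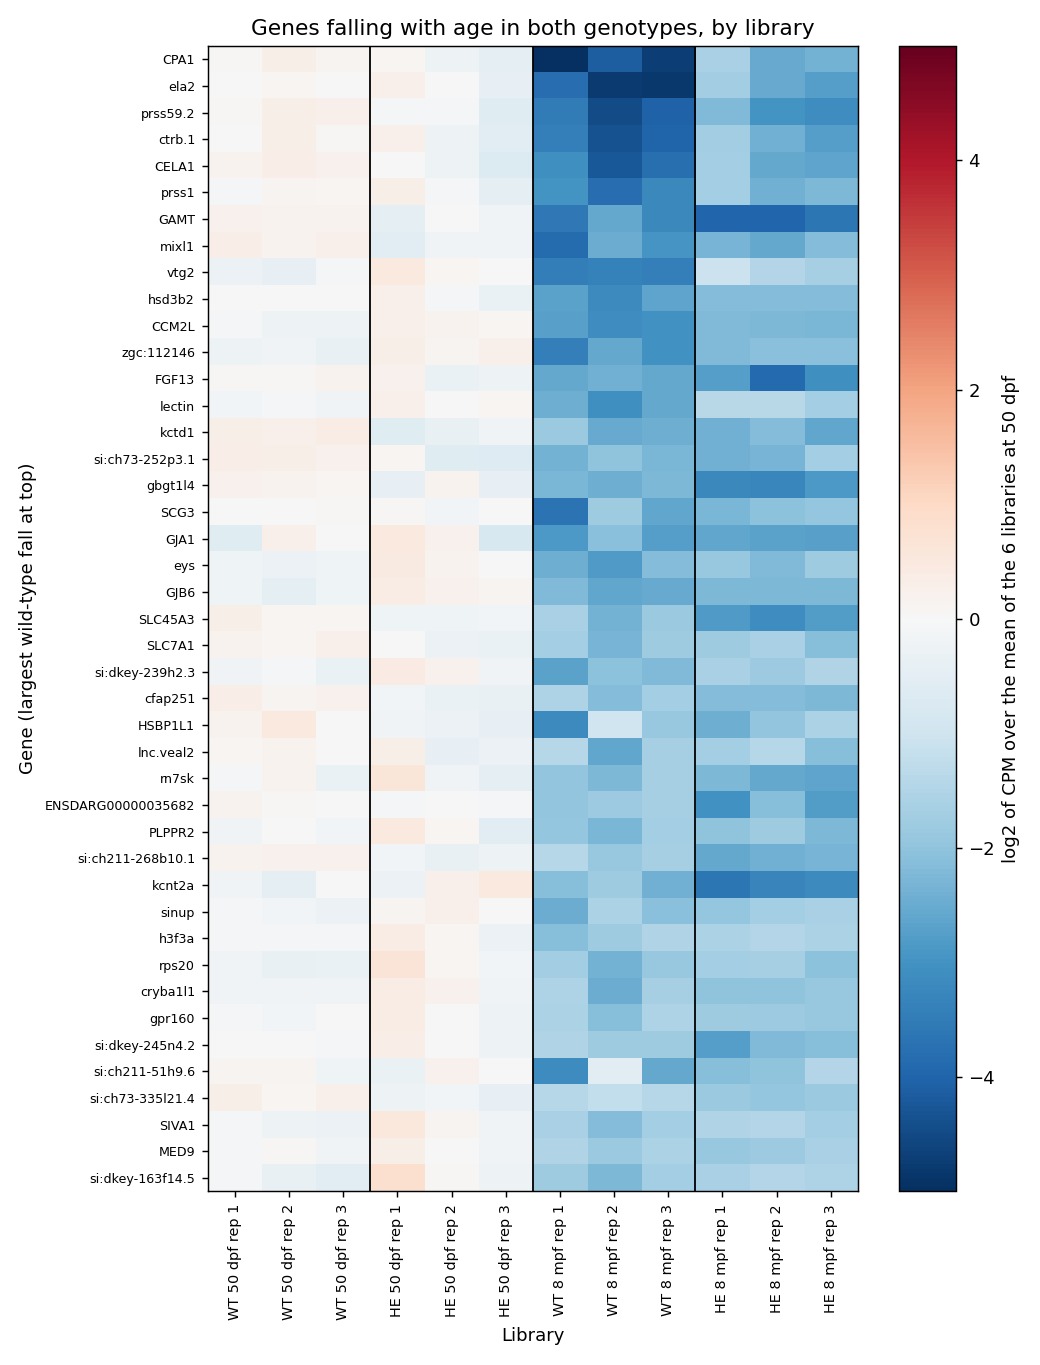
Level of 43 of the 45 genes (rows, largest wild-type difference at the top) in each of the 12 libraries (columns), as log2 of CPM over the gene's mean in the 6 libraries at 50 dpf. Every 8 mpf cell lies below the 50 dpf cells of its row, which is how the rows were chosen, and the palest 8 mpf cells of si:ch211-51h9.6 and HSBP1L1 are in wild-type replicate 2.

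In HE at 50 dpf, replicate 1 was the highest of its 3 libraries for 33 of the 45 genes and for 43.7% of all tested genes, and HE replicate 3 was the lowest for 30 of the 45 and for 34.2% of all tested genes. The genes share these libraries and are not replicates of each other. At 8 mpf, wild-type replicate 2 stood at least 1.5-fold above the next library of its group for 7 genes and HE replicate 1 for 5. These 5 are all digestive enzyme genes, and such counts were not made over all tested genes. The same wild-type library was the lowest of its group for 26 of the 45 genes and for 43.9% of all tested genes.

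Digestive enzyme genes had the widest age ratios in wild type. CELA1 (ENSDARG00000017314) and ela2 (ENSDARG00000056744) encode elastases, prss1 (ENSDARG00000042993) and prss59.2 (ENSDARG00000073742) trypsins, ctrb.1 (ENSDARG00000090428) a chymotrypsinogen and CPA1 (ENSDARG00000030915) a carboxypeptidase. The 6 genes with a wild-type ratio of at least 10 were these 6, at 10.53 to 32.7, while their HE ratios were 3.70 to 5.74. Whether the ratios differ between the genotypes was not tested. Summed over the 6 genes the level was 357 ± 23.8 CPM in wild type and 282 ± 65.4 CPM in HE at 50 dpf, and 24.5 ± 8.40 CPM and 65.0 ± 22.7 CPM at 8 mpf (mean ± SD, n = 3).

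The elastase gene CELA1 was at 122, 134 and 125 CPM in wild-type libraries and at 109, 91.6 and 67.2 CPM in HE libraries at 50 dpf. At 8 mpf it was at 13.0, 5.77 and 7.87 CPM in wild type and at 33.4, 18.3 and 17.4 CPM in HE. The lowest HE library at 8 mpf thus lay above the highest wild-type library. The log2 fold change between the genotypes at 8 mpf was 1.39 (SE 0.30; edgeR adjusted p = 0.00448).

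The other elastase gene, ela2, was at 16.6, 17.7 and 16.4 CPM in wild type and at 19.98, 16.2 and 12.6 CPM in HE at 50 dpf. In follicles of 8 mpf the values were 1.17, 0.601 and 0.588 CPM in wild type against 4.94, 2.91 and 2.43 CPM in HE. The genotypes overlapped at 50 dpf and not at 8 mpf, where the log2 fold change was 2.14 (SE 0.32; edgeR adjusted p = 2.93e-04).

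Of the trypsin genes, prss59.2 was at 73.5, 85.8 and 83.2 CPM in wild type and at 67.4, 68.0 and 46.0 CPM in HE at 50 dpf, with all HE libraries below the wild-type ones. At 8 mpf the order was the opposite, with 6.22, 3.14 and 4.27 CPM in wild type against 15.1, 8.93 and 8.22 CPM in HE. prss1 was at 57.3, 66.3 and 64.9 CPM in wild type and at 73.2, 58.0 and 43.0 CPM in HE at 50 dpf, where the genotypes overlapped. It was at 7.71, 4.31 and 6.40 CPM in wild type and at 18.5, 11.5 and 12.6 CPM in HE at 8 mpf. Log2 fold changes between the genotypes at 8 mpf were 1.25 for prss59.2 and 1.22 for prss1, with edgeR adjusted p-values of 0.00416 and 0.00254.

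The chymotrypsinogen gene ctrb.1 was at 59.11, 70.4 and 60.5 CPM in wild type and at 68.8, 48.3 and 40.7 CPM in HE at 50 dpf. The 8 mpf levels were 5.41, 2.82 and 3.63 CPM in wild type against 17.2, 10.8 and 8.57 CPM in HE, higher in HE by 1.64 on the log2 scale (SE 0.29; edgeR adjusted p = 0.00111). The carboxypeptidase gene CPA1 (ENSDARG00000030915) was the least expressed at 8 mpf in wild type relative to its own 50 dpf level. It was at 6.24, 7.21 and 6.60 CPM in wild type and at 6.34, 5.04 and 4.28 CPM in HE at 50 dpf, and at 0.0810, 0.344 and 0.225 CPM in wild type and at 1.93, 1.05 and 1.16 CPM in HE at 8 mpf. The log2 fold change at 8 mpf was 2.58 (SE 0.36; edgeR adjusted p = 2.14e-04), the largest among the 45 genes, and the lowest count of any of the 45 genes in any library, 4, stands behind the smallest of these values.

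The libraries ranked largely alike for the 6 enzyme genes. Wild-type replicate 2 was the highest of its group at 50 dpf for 6 of 6, HE replicate 3 the lowest at 50 dpf for 6 of 6, and HE replicate 1 the highest at 8 mpf for 6 of 6. Wild-type replicate 1 was the highest of its group at 8 mpf for 5 of 6. The shares over all tested genes, in the same order, were 35.8%, 34.2%, 29.0% and 37.0%. The lowest library at 8 mpf was less uniform, with wild-type replicate 2 and HE replicate 3 each lowest for 4 of 6. In each library-by-library omission all 6 stayed higher in HE at 8 mpf, with an adjusted p of at most 0.0241 over all settings tried.

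**Figure D2:**
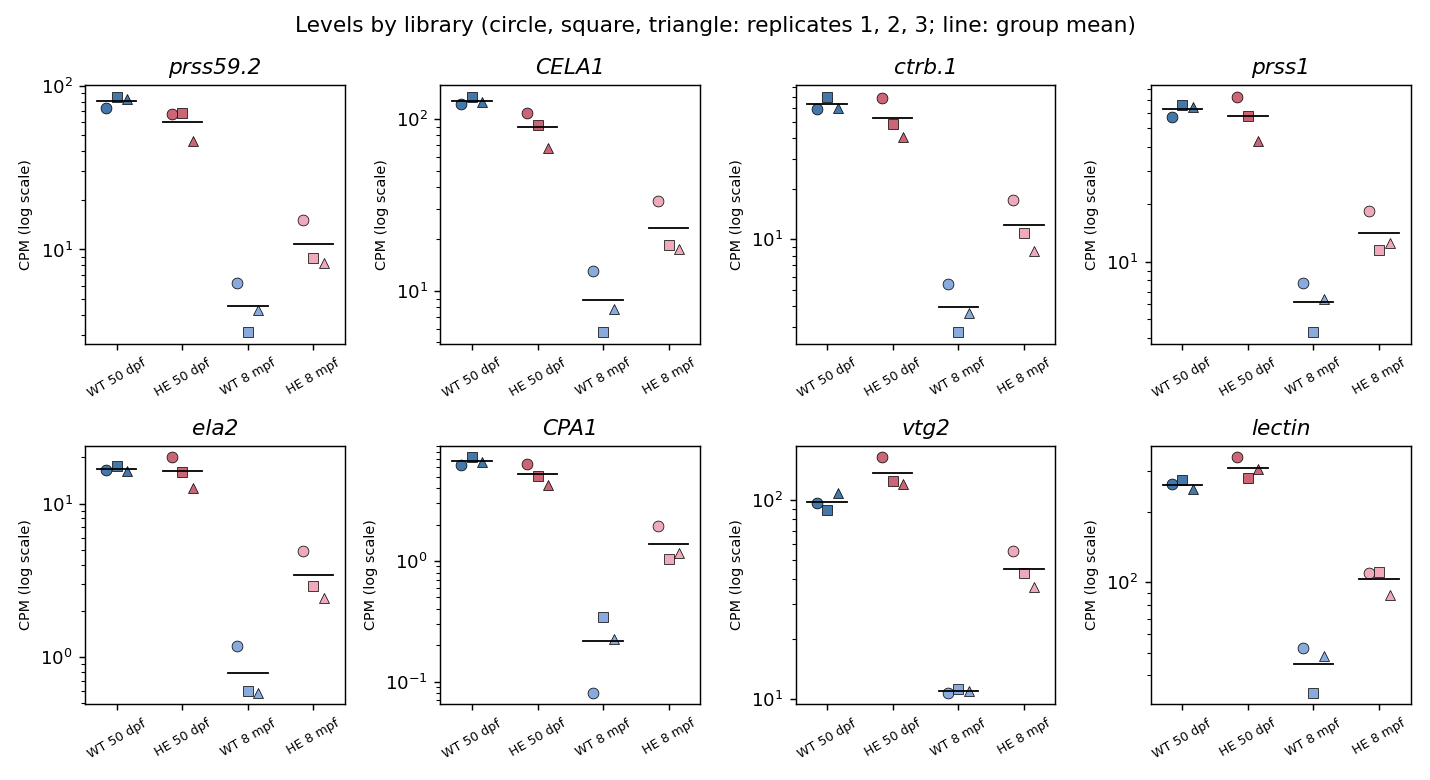
CPM on log axes in each library of the 4 groups (circle, square and triangle for replicates 1, 2 and 3, line for the group mean) for the 6 digestive enzyme genes, vtg2 and lectin. In all 8 panels the 3 HE libraries at 8 mpf lie above the 3 wild-type libraries at 8 mpf and below all 50 dpf libraries.

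A list of exocrine pancreas genes was read beside them, whose symbols matched 12 genes, all tested, with 2 genes for the symbol CPA1. It includes prss1, prss59.2, ela2 and CPA1 (ENSDARG00000030915), while CELA1 and ctrb.1 are not on it and were added to the enzyme group after their values were seen. Of the 8 listed genes outside the 45, all 8 were lower at 8 mpf in wild type and 6 in HE (edgeR, adjusted p under 0.05). Over all tested genes these shares were 26.5 and 25.5 percent. By the same test 6 of the 8 were higher in HE at 8 mpf, beside 12.6 percent of all tested genes. The summed level of the 8 was 198 to 232 CPM in wild type and 97.1 to 142 CPM in HE at 50 dpf, and 8.63 to 17.9 CPM in wild type and 26.7 to 49.2 CPM in HE at 8 mpf. Counts of prss59.1 and prss59.2 are uncertain, since they are near-identical copies and the labels do not say how shared reads were assigned.

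Several of these genes missed the rule by their genotype difference at 50 dpf. The trypsin gene prss59.1 (ENSDARG00000079274) was at 93.8 ± 7.07 CPM in wild type and at 61.2 ± 14.0 CPM in HE at 50 dpf, and at 5.17 ± 2.08 CPM and 15.1 ± 5.32 CPM at 8 mpf. The elastase gene ela3l was at 29.0 ± 3.08 CPM and 18.3 ± 2.22 CPM at 50 dpf, and at 1.58 ± 0.638 CPM and 5.34 ± 1.82 CPM at 8 mpf. The amylase gene amy2a was at 28.02 ± 3.69 CPM and 8.43 ± 1.33 CPM at 50 dpf and at 1.45 ± 0.872 CPM and 5.90 ± 2.11 CPM at 8 mpf. It did not pass the test for age in HE (log2 fold change -0.52; edgeR adjusted p = 0.202). A defining marker of the acinar cell, the elastase gene ela2l, was at 0 in wild-type replicates 1 and 3 at 8 mpf, at 0.0368 CPM in replicate 2 and at 2.53 to 4.08 CPM in HE. The part of pancreas RNA in the levels of the 6 enzyme genes was not tested.

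The yolk precursor gene vtg2 (ENSDARG00000055809) was at 96.4, 88.7 and 109 CPM in wild-type libraries and at 164, 124 and 120 CPM in HE libraries at 50 dpf. At 8 mpf it was at 10.7, 11.2 and 10.98 CPM in wild type and at 55.2, 42.9 and 36.6 CPM in HE. HE lay above wild type without overlap at both ages, and the age ratio of the normalized means was 9.21 in wild type and 3.09 in HE. The genotype difference at 8 mpf was 2.03 on the log2 scale (SE 0.16; edgeR adjusted p = 1.96e-06), and no other of the 45 genes had an adjusted p as small.

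Some of the vitellogenin genes are near copies of each other, and the separate counts of those copies are uncertain. All 7 vitellogenin genes that could be tested were higher in HE at 8 mpf, beside 12.6 percent of all tested genes. vtg1 was at 267 ± 34.5 CPM in wild type and at 316 ± 43.0 CPM in HE at 50 dpf, and at 45.4 ± 5.75 CPM and 164 ± 19.6 CPM at 8 mpf. Its age ratio in HE of 1.97 kept it outside the rule. For vtg4, vtg5, vtg6 and vtg7 the HE mean at 50 dpf was 1.92 to 3.31 times the wild-type mean, above the limit of 1.5.

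Markers of the liver, where vitellogenin is made, were read beside the vitellogenin genes. Of 22 tested liver genes, 21 were lower at 8 mpf in wild type and 10 in HE, and none is among the 45. Over all tested genes the shares were 26.5 percent in wild type, 25.5 percent in HE and 16.5 percent in both. The count of liver genes lower in both genotypes was 10. It was 6 with library size alone and 5 in either test of the authors' normalized values. Their summed level was 302 to 314 CPM in wild type and 35.2 to 44.7 CPM in HE at 50 dpf, and 17.8 to 25.4 CPM in wild type and 20.4 to 26.6 CPM in HE at 8 mpf. At 8 mpf 12 of the 22 were higher and 1 lower in HE. Of all tested genes, 12.6 percent were higher and 15.5 percent lower there. The defining marker fabp10a, a liver fatty acid binding protein gene, was at 19.0 ± 1.33 CPM in wild type and at 1.28 ± 0.572 CPM in HE at 50 dpf, and at 0.115 ± 0.0995 CPM and 1.79 ± 0.443 CPM at 8 mpf, with 0 in wild-type replicate 1. The part of liver RNA in the vtg2 levels was not tested.

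The steroid synthesis gene hsd3b2 (ENSDARG00000019747) encodes 3-beta-hydroxysteroid dehydrogenase, which turns pregnenolone into progesterone. It was at 195, 195 and 201 CPM in wild type and at 235, 190 and 157 CPM in HE at 50 dpf. In follicles of 8 mpf the values were 30.3, 21.8 and 31.4 CPM in wild type against 43.3, 44.1 and 43.0 CPM in HE. The HE libraries lay above the wild-type ones, by 0.64 on the log2 scale (SE 0.15; edgeR adjusted p = 0.00704). Among the 12 other tested genes of the steroidogenic list, 4 were lower at 8 mpf in wild type, 4 in HE and 3 in both. Over all tested genes these shares were 26.5, 25.5 and 16.5 percent. None of the 12 passed the test between the genotypes at 8 mpf, beside 28.1 percent of all tested genes. HSD3B7, a relative by symbol outside that list, fell by 1.61 in wild type and by 0.89 in HE on the log2 scale. At 8 mpf HSD3B7 was higher in HE by 0.45 (edgeR adjusted p = 0.0138). The listed relative hsd3b1 fell by 1.92 in wild type (edgeR adjusted p = 1.52e-04) and did not pass the test for age in HE (edgeR adjusted p = 0.249). CYP11A1 (ENSDARG00000002347), the side-chain cleavage enzyme gene, fell by 0.32 in wild type and by 0.66 in HE on the log2 scale, and fdx1, its electron donor, fell by 0.78 and by 1.08. CYP17A1, which acts after it, was higher at 8 mpf in wild type by 0.33 on the log2 scale and moved by -0.15 in HE (edgeR adjusted p = 0.145).

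The gap junction genes GJA1 (ENSDARG00000041799) and GJB6 (ENSDARG00000042707) encode connexins 43 and 30. GJA1 was at 10.45, 19.0 and 16.1 CPM in wild type and at 22.4, 18.7 and 9.26 CPM in HE at 50 dpf, with HE replicate 3 below every other library of that age. The 8 mpf levels were 2.17, 3.80 and 2.37 CPM in wild type against 2.61, 2.49 and 2.44 CPM in HE. GJB6 was at 11.8, 9.83 and 11.6 CPM in wild type and at 17.4, 15.6 and 14.8 CPM in HE at 50 dpf, and at 2.94, 2.21 and 2.37 CPM and 2.88, 2.86 and 2.87 CPM at 8 mpf. The genotypes overlapped at 8 mpf for both genes, with log2 fold changes of -0.16 (SE 0.32; edgeR adjusted p = 0.759) and 0.20 (SE 0.14; edgeR adjusted p = 0.309). The connexin gene gjc4b, at 489 ± 29.8 CPM in wild type at 50 dpf, was at 415 ± 57.6 CPM in wild type at 8 mpf (log2 fold change -0.24; edgeR adjusted p = 0.188). In HE it fell by 0.65 on the log2 scale, from 606 ± 50.5 CPM to 386 ± 75.3 CPM (edgeR adjusted p = 0.00232).

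GJA1 is the only 1 of the 45 on a list of follicle somatic cell genes. Of the 20 other tested genes of that list, 8 were lower at 8 mpf in wild type, 9 in HE and 7 in both. The shares over all tested genes were 26.5, 25.5 and 16.5 percent. In the other direction, 2 genes of the list were higher at 8 mpf in wild type and 4 in HE. With GJA1, which was chosen for its age difference, the count lower in both was 8. This count was 5 with library size alone, with only the groups compared in the fit or without HE replicate 3 at 50 dpf. gsdf, a growth factor of the somatic cells, fell by 3.71 in wild type and by 2.80 in HE on the log2 scale, and its HE mean at 50 dpf was 0.399 of wild type, below the limit of the rule. amh, the anti-Mullerian hormone gene, was under the level floor, at 1.14 ± 0.0987 CPM in wild type and at 1.09 ± 0.319 CPM in HE at 50 dpf. The summed level of the list without GJA1 was 83.8 to 92.1 CPM in wild type and 48.5 to 51.5 CPM in HE at 50 dpf, and 51.0 to 62.1 CPM and 35.9 to 40.3 CPM at 8 mpf.

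No gene of the oocyte list is among the 45. Of its 18 genes, 11 were lower at 8 mpf in wild type and 16 in HE, beside 26.5 and 25.5 percent of all tested genes. The count lower in both genotypes was 11, and it ran from 9 to 16 over the settings tried. The oocyte transcription factor gene figla was at 238 ± 14.5 CPM in wild type and at 142 ± 29.1 CPM in HE at 50 dpf and at 48.8 ± 7.88 CPM and 33.4 ± 1.47 CPM at 8 mpf. Its age ratios of 5.02 and 4.33 met the rule, and its HE mean at 50 dpf was 0.589 of wild type. Over all 23 lists, 107 of 381 tested genes were lower at 8 mpf in both genotypes, which is 28.1% of them, beside 16.5 percent of all tested genes. The 381 include 6 of the 45, which were chosen for their age difference, so that the share is a description only. The lists were chosen with results known, and the shares were not compared by a test.

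Several genes of general cell function were among the most counted of the 45, with age ratios under 5 in both genotypes. SIVA1 (ENSDARG00000114552), whose product promotes apoptosis in mammals, was at 1999, 1798 and 1728 CPM in wild type and at 3058, 2344 and 1912 CPM in HE at 50 dpf. At 8 mpf it was at 701, 481 and 657 CPM in wild type and at 755, 767 and 660 CPM in HE. The genotypes overlapped at both ages, and the log2 fold change at 8 mpf was 0.25 (SE 0.17; edgeR adjusted p = 0.325).

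rps20 (ENSDARG00000036044), a protein of the small ribosomal subunit, was at 1143, 985 and 1035 CPM in wild type and at 2016, 1380 and 1170 CPM in HE at 50 dpf. In follicles of 8 mpf the values were 385, 248 and 345 CPM in wild type against 392, 402 and 312 CPM in HE. HE replicate 1 at 50 dpf was the highest library for SIVA1 and for rps20. h3f3a (ENSDARG00000020504), which encodes the replacement histone H3.3 and has near-identical copies, was at 716, 732 and 729 CPM in wild type and at 982, 813 and 631 CPM in HE at 50 dpf. It was at 173, 227 and 272 CPM in wild type and at 257, 279 and 255 CPM in HE at 8 mpf. Neither rps20 (log2 fold change 0.18; edgeR adjusted p = 0.551) nor h3f3a (0.23; edgeR adjusted p = 0.329) passed the test between the genotypes at 8 mpf.

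sinup (ENSDARG00000017163), the gene of a nuclear protein that binds Siaz ubiquitin ligase, was at 341, 326 and 293 CPM in wild type and at 397, 434 and 366 CPM in HE at 50 dpf. It was at 63.5, 120 and 83.6 CPM in wild type and at 95.3, 112 and 117 CPM in HE at 8 mpf. gpr160 (ENSDARG00000038700), a G protein-coupled receptor without a settled ligand, was at 246, 240 and 266 CPM in wild type and at 337, 264 and 218 CPM in HE at 50 dpf, and at 87.1, 60.2 and 90.4 CPM and 75.5, 74.2 and 70.5 CPM at 8 mpf. Both overlapped between the genotypes at 8 mpf. The clone-named si:dkey-163f14.5 was also among the most counted, at 1366 to 1895 CPM in wild type and at 1696 to 3494 CPM in HE at 50 dpf and at 422 to 614 CPM and 661 to 735 CPM at 8 mpf.

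Other genes of nuclear and metabolic function had group means under 60 CPM at 50 dpf. MED9, a subunit of the Mediator complex of transcription, was at 48.0 ± 3.79 CPM in wild type and at 52.1 ± 9.01 CPM in HE at 50 dpf and at 16.1 ± 1.96 CPM and 14.6 ± 1.28 CPM at 8 mpf. rn7sk, the 7SK RNA that holds the elongation factor P-TEFb inactive, was at 11.9 ± 2.08 CPM and 12.9 ± 5.33 CPM, and at 3.21 ± 0.638 CPM and 2.23 ± 0.328 CPM. SLC7A1, a transporter of cationic amino acids, was at 40.2 ± 2.12 CPM and 31.2 ± 3.92 CPM, and at 9.48 ± 2.07 CPM and 10.01 ± 1.73 CPM. None of the 3 passed the test between the genotypes at 8 mpf.

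GAMT (ENSDARG00000070844), the enzyme of the last step of creatine synthesis, had age ratios of 9.65 in wild type and 12.5 in HE, the largest HE ratio of the 45, and the smaller of its ratios was above that of any other of them. It was at 19.9, 19.2 and 19.1 CPM in wild type and at 12.2, 17.3 and 15.0 CPM in HE at 50 dpf, and at 1.44, 2.90 and 1.83 CPM in wild type and at 1.11, 1.09 and 1.39 CPM in HE at 8 mpf. Wild type lay above HE at both ages, and the log2 fold change at 8 mpf was -0.78 (SE 0.23; edgeR adjusted p = 0.0241). This call was lost without wild-type replicate 2, HE replicate 1 or HE replicate 2 at 8 mpf and with only the groups compared in the fit, at adjusted p-values up to 0.0873.

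FGF13 (ENSDARG00000056633), a growth factor homologue that stays in the cell and modulates sodium channels, followed with ratios of 6.55 and 8.77. It was at 14.2, 14.6 and 15.5 CPM in wild type and at 15.9, 11.1 and 11.6 CPM in HE at 50 dpf. The 8 mpf levels were 2.35, 2.61 and 2.34 CPM in wild type against 2.05, 0.931 and 1.67 CPM in HE, without overlap, yet short of the threshold (log2 fold change -0.63; edgeR adjusted p = 0.0586). gbgt1l4 (ENSDARG00000068503), a member of a glycosyltransferase family, had ratios of 5.36 and 7.45. It was at 83.6, 79.5 and 75.8 CPM in wild type and at 53.3, 80.4 and 54.0 CPM in HE at 50 dpf, and at 14.8, 13.2 and 15.0 CPM in wild type and at 7.65, 7.45 and 9.74 CPM in HE at 8 mpf. It was lower in HE at 8 mpf by a log2 difference of -0.79 (SE 0.16; edgeR adjusted p = 0.00290). Its relative gbgt1l1 was at 46.7 ± 1.64 CPM and 33.8 ± 8.49 CPM at 50 dpf and at 26.2 ± 14.1 CPM and 24.6 ± 4.36 CPM at 8 mpf, with age ratios of 1.85 and 1.41. For the relative gbgt1l2 the log2 fold changes between ages were -0.95 in wild type and -0.86 in HE (edgeR adjusted p = 1.54e-04 and 3.49e-04). For gbgt1l9 they were -1.60 and -0.64 (edgeR adjusted p = 1.57e-04 and 0.0533).

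mixl1, a homeobox factor of mesendoderm, was at 22.4 ± 1.12 CPM in wild type and at 15.4 ± 2.41 CPM in HE at 50 dpf and at 2.38 ± 1.04 CPM and 3.75 ± 0.525 CPM at 8 mpf, with age ratios of 9.72 and 4.22. Its genotypes overlapped at 8 mpf (log2 fold change 0.64; edgeR adjusted p = 0.0816). CCM2L (ENSDARG00000063089), a relative of the vascular malformation gene CCM2, was at 20.1, 17.96 and 18.1 CPM in wild type and at 26.0, 24.3 and 22.8 CPM in HE at 50 dpf, and at 3.30, 2.503 and 2.65 CPM and 4.66, 4.49 and 4.40 CPM at 8 mpf. HE lay above wild type at both ages, with a log2 fold change at 8 mpf of 0.69 (SE 0.13; edgeR adjusted p = 0.00145). The call was lost with the authors' gene-specific scaling and in tests of their normalized values, at adjusted p-values up to 0.127.

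eys (ENSDARG00000079519), known for its part in photoreceptors, was at 5.41, 5.21 and 5.41 CPM in wild type and at 8.55, 7.15 and 6.35 CPM in HE at 50 dpf, and at 1.15, 0.896 and 1.42 CPM and 1.69, 1.37 and 1.84 CPM at 8 mpf. The genotypes overlapped at 8 mpf (log2 fold change 0.52; edgeR adjusted p = 0.0617). SCG3, a protein of secretory granules, was at 11.04 ± 0.382 CPM and 10.8 ± 0.683 CPM at 50 dpf and at 1.95 ± 1.18 CPM and 2.58 ± 0.306 CPM at 8 mpf. It did not pass the test between the genotypes at 8 mpf (edgeR adjusted p = 0.413).

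5 further genes did not pass the test between the genotypes at 8 mpf. cfap251, named for cilia and flagella, was at 14.4 ± 0.980 CPM in wild type and at 10.2 ± 0.975 CPM in HE at 50 dpf and at 3.60 ± 0.768 CPM and 2.70 ± 0.111 CPM at 8 mpf (log2 fold change between the genotypes at 8 mpf -0.41; edgeR adjusted p = 0.0731). kctd1 was at 12.9 ± 0.549 CPM and 8.19 ± 1.24 CPM at 50 dpf and at 2.23 ± 0.579 CPM and 2.02 ± 0.326 CPM at 8 mpf. The long noncoding RNA lnc.veal2 was at 6.27 ± 0.311 CPM and 5.47 ± 1.43 CPM, and at 1.67 ± 0.636 CPM and 1.79 ± 0.428 CPM. PLPPR2 (ENSDARG00000101478) and the crystallin gene cryba1l1, with wild-type means of 5.64 ± 0.417 CPM and 4.58 ± 0.0485 CPM at 50 dpf, had 1.54 ± 0.297 CPM and 1.44 ± 0.452 CPM at 8 mpf. These genes had age ratios of 3.11 to 5.41 over both genotypes.

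Single libraries carried much of the 8 mpf level of a few genes. si:ch211-51h9.6 was at 1.82, 11.2 and 2.70 CPM in wild type at 8 mpf, so that replicate 2 was 4.14-fold above the next library. HSBP1L1, a relative of the heat shock factor binding protein gene, was at 2.84, 12.9 and 6.83 CPM there, 1.88-fold above the next. For SCG3, GJA1, GAMT and CPA1 (ENSDARG00000030915) the same library was 1.53-fold to 1.78-fold above the next. In wild-type replicate 1 at 8 mpf, ela2 was 1.95-fold and CELA1 1.65-fold above the next library. HE replicate 1 at 8 mpf was 1.59-fold to 1.82-fold above the next for CELA1, ela2, prss59.2, CPA1 (ENSDARG00000030915) and ctrb.1. Wild-type replicate 2 held the highest counted total of its group at 8 mpf, 66844694. A link of this total to the levels above, which are scaled to it, was not tested.

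Between the genotypes at 8 mpf, 20 of the 45 genes passed an adjusted p of 0.05 (44.4%), beside 28.1 percent of all tested genes, and the 2 shares were not compared by a test. Of the 45 genes, 12 were called higher in HE and 8 lower. Of all 18834 tested genes, 2377 were called higher (12.6 percent) and 2911 lower (15.5 percent). With library size alone as the scaling, 11 were higher and 12 lower. Log2 fold changes ran from 0.64 to 2.58 for the genes higher in HE and from -1.27 to -0.51 for those lower, with edgeR adjusted p-values of 1.96e-06 to 0.0174 and 0.00126 to 0.0248. The median over the 45 genes was 0.13, beside 0.0083 over all tested genes. The CPM of the genotypes did not overlap at 8 mpf for 23 of the 45 genes, beside 47.0 percent of all tested genes, and all 20 called genes were among them. Without the 6 enzyme genes, 14 of 39 were called (35.9%), 6 higher and 8 lower, with a median of 0.079.

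**Figure D3:**
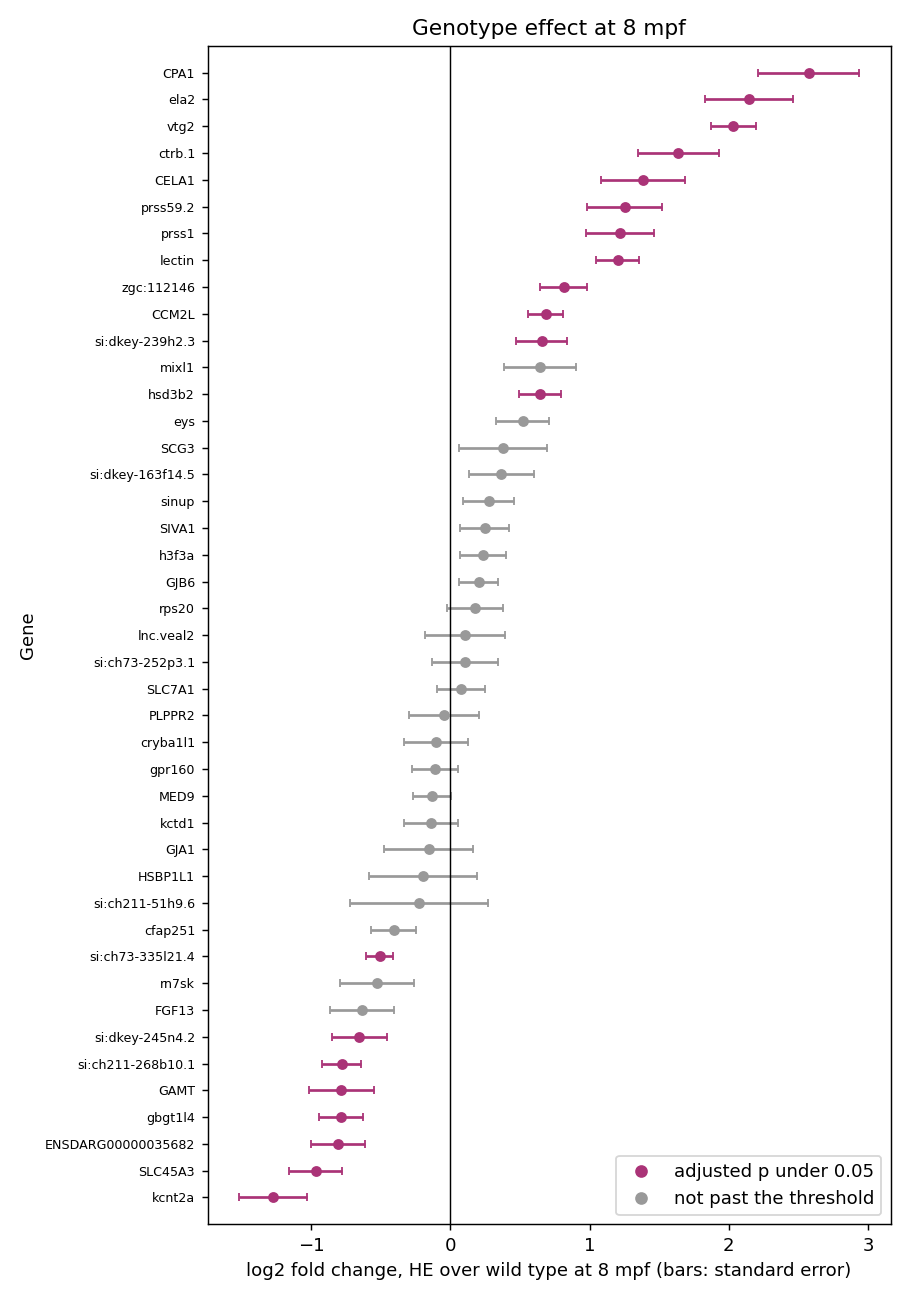
Log2 fold change between HE and wild type at 8 mpf for 43 of the 45 genes, with its standard error as a bar, in order of size. The 20 genes with an adjusted p under 0.05 are coloured, 12 to the right of 0 and 8 to the left, with CPA1 at 2.58 and kcnt2a at -1.27 as the ends.

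Higher in HE beside the enzyme genes, vtg2, hsd3b2 and CCM2L were lectin, zgc:112146 and si:dkey-239h2.3. The gene that the names table calls only lectin (ENSDARG00000055833), a word for proteins that bind sugars, was at 262, 273 and 251 CPM in wild type and at 342, 280 and 304 CPM in HE at 50 dpf. At 8 mpf it was at 52.3, 33.8 and 48.3 CPM in wild type and at 110, 111 and 88.5 CPM in HE. The genotypes did not overlap at either age, and the log2 fold change at 8 mpf was 1.2 (SE 0.15; edgeR adjusted p = 8.80e-05). The log2 fold changes of zgc:112146 and si:dkey-239h2.3 were 0.81 and 0.66, with edgeR adjusted p-values of 0.00294 and 0.0174, and the second was not called with library size alone as the scaling (adjusted p = 0.0894), nor without wild-type replicate 1 or HE replicate 3 at 8 mpf.

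Among the genes lower in HE, kcnt2a (ENSDARG00000075812), a sodium-activated potassium channel gene, had the largest difference. It was at 6.81, 5.51 and 7.65 CPM in wild type and at 6.34, 9.22 and 10.97 CPM in HE at 50 dpf. In follicles of 8 mpf the values were 1.78, 2.27 and 1.45 CPM in wild type against 0.628, 0.791 and 0.854 CPM in HE, without overlap. The log2 fold change at 8 mpf was -1.27 (SE 0.25; edgeR adjusted p = 0.00210), and the age ratios were 3.55 in wild type and 12.4 in HE. It is 1 of 2 genes of the 45 with an HE ratio of at least 10, beside GAMT.

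SLC45A3, of a family of sugar transporters, was at 7.36, 6.43 and 6.51 CPM in wild type and at 5.23, 5.21 and 5.53 CPM in HE at 50 dpf, and at 1.96, 1.17 and 1.66 CPM and 0.843, 0.698 and 0.864 CPM at 8 mpf. Its log2 fold change at 8 mpf was -0.97 (SE 0.19; edgeR adjusted p = 0.00242). The other genes lower in HE were GAMT, gbgt1l4, ENSDARG00000035682 without a symbol, and the clone-named si:ch211-268b10.1, si:dkey-245n4.2 and si:ch73-335l21.4. The log2 fold changes of the last 4 were -0.81, -0.78, -0.65 and -0.51. Of these, si:dkey-245n4.2 was not called without wild-type replicate 1 or HE replicate 1 at 8 mpf, at up to an adjusted p of 0.103. The 25 genes that were not called had log2 fold changes between -0.63 and 0.64, which does not show that they are equal in the genotypes.

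**Figure D4:**
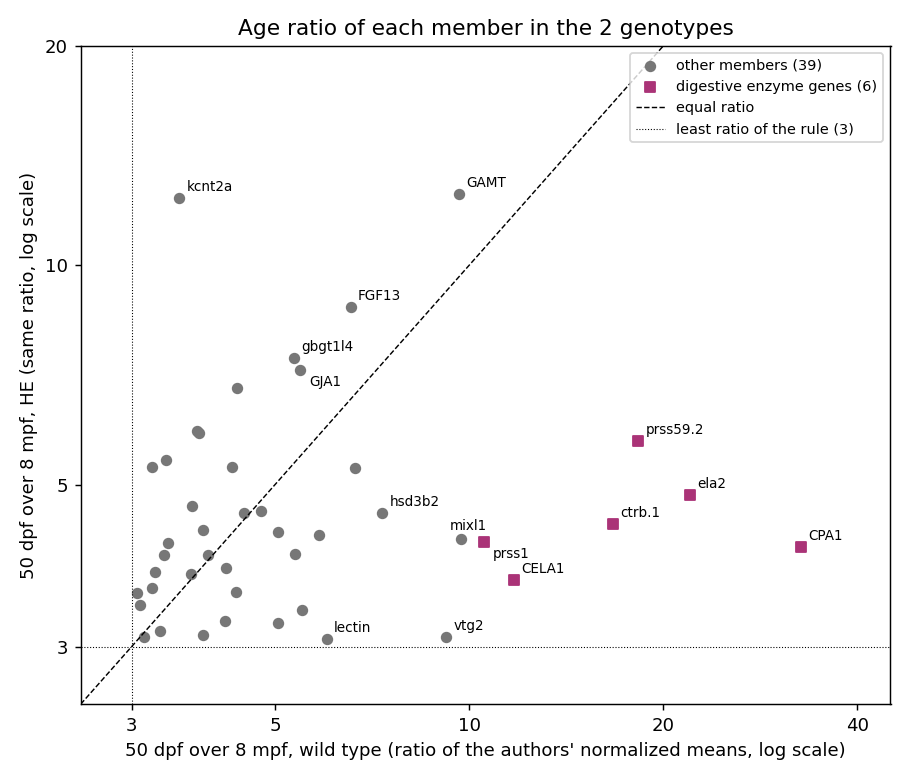
Ratio of the 50 dpf to the 8 mpf mean of the authors' normalized values in wild type (x axis) and HE (y axis), both on log axes, 1 point per gene, with the 6 digestive enzyme genes as squares. The squares lie far to the right of the line of equal ratio, at 10.53 to 32.7 in wild type against 3.70 to 5.74 in HE, and kcnt2a lies farthest to its left.

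The age ratio was larger in wild type for 23 of the 45 genes and larger in HE for 22. Without the 6 enzyme genes, the median ratio was 4.20 in wild type and 4.22 in HE. The age ratio and the genotype difference at 8 mpf share the 8 mpf libraries, so that a gene higher in HE at 8 mpf has, by construction, the smaller ratio there unless its 50 dpf levels differ as well.

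The limits of the rule fell between genes of nearly equal values. Just inside the least age ratio of 3 were lectin at 3.07 and vtg2 at 3.09, and just outside were cd9a, a tetraspanin gene, at 2.99 and CYP26A1, a retinoic acid hydroxylase gene, at 2.97. kctd1 at 1.5 was just inside the 1.5-fold limit between the genotypes at 50 dpf, with RGS2 at 1.53 and prss59.1 at 1.55 just outside. At the floor of 250 normalized units, SLC45A3 at 261 and cryba1l1, a beta crystallin gene, at 264 were inside and PALS1 at 234 and SPATA4 at 233 outside. SLC7A1 had the narrowest gap between its lowest 50 dpf and its highest 8 mpf normalized value, with a ratio of 1.46. A further 71 genes met all parts but the ratio in wild type, 39 all but the ratio in HE, 57 all but the limit between the genotypes, 165 all but the floor and 2 all but the gap between ages.

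On CPM in place of the normalized values, with a floor of 5 CPM, 39 of the 45 genes still met the rule. The 6 that did not were cryba1l1 by the floor, lectin by a ratio of 2.999 in HE, MED9 by a ratio of 2.99 in wild type, kctd1 and si:ch73-252p3.1 by the limit between the genotypes and si:dkey-163f14.5 by both the wild-type ratio and that limit. The ages overlapped in CPM for none of the 45. The genes are spread over the genome, with the 33 that could be placed in the RefSeq gene table of assembly GRCz12tu on 20 chromosomes. No 2 of these 33 were direct neighbours, and the closest pair, prss1 and prss59.2, had 56 genes between them.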

How the data were processed

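Per the labels' protocols, total RNA was isolated with TRIzol, and a directional (strand-keeping) library kit was used. The authors deposited a table of estimated counts per gene, in whole numbers and not normalized, and a second table of linear normalized values (signal). The submitters' processing notes name the build GRCz11 and the tools bcl2fastq, FastQC 0.11.5, HISAT2, StringTie and DESeq2, without their roles. Of 15798 genes counted in all libraries, 55.7% had normalized values set by 1 common factor per library within 1%, as did 23 of the 45 genes, and the rest had factors of their own. 0 columns belonged to other samples and 0 rows named no gene.

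Groups follow the genotype and age labels. The 45 genes, the lists and the tests were chosen with earlier results of these data known. The deposited estimated counts were tested with edgeR 4.0.16 (R 4.3.3): filterByExpr left 18834 of 26339 genes with at least 1 count, all 45 among them. Scaling was by TMM, with 1 quasi-likelihood fit of the 12 libraries and 4 group means. Contrasts were two-sided, with Benjamini-Hochberg adjustment over all tested genes and a threshold of 0.05. SE is the log2 fold change over the root of the F statistic. Tests and rule were checked on simulated data. In the check of the genotype test at 8 mpf, 77.5% of 200 genes changed 2-fold were called, with 9 false calls. Those simulated counts held no age difference, unlike the data here. Figures were drawn with Python 3.11.15 and matplotlib 3.10.9.

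The 23 lists were matched by exact symbol (174 genes), by symbol in capitals (166) or by capitals without the paralog letter (107). Some lists therefore hold duplicates or other genes that were not written on them. On the list of Notch signalling genes, dld was matched to DLD by capitals, and whether this is the gene meant was not checked. Symbols matched 28988 of 32057 IDs. 10 of the 45 genes have a clone or locus name or none, and 6 share their symbol with another gene. Named were genes with a proper symbol: the 10 with the highest mean at 50 dpf, the 10 with the largest smaller age ratio, and up to 5 per direction with a genotype log2 fold change of at least 1 at 8 mpf, an adjusted p under 0.05 and no overlap. Genes on a list with up to 4 others of it, those at the limits of the rule and paralog pairs were added. Others, clone-named ones included, were named after their values were seen. Alternatives were RLE, upper quartile and library size scaling, DESeq2 1.42.0, no low-count filter, only the groups compared, the replicate number as a block, and limma 3.58.1 on log2 of the normalized value plus 1 or 0.1. Each library was also left out. Scaling by the authors' gene-specific factors was added after the data were seen. Sequences, coordinates and the values of a few genes that the naming rule gave are not reported here.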

Additional observations from a re-analysis of the deposited data

How the results depend on the processing

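The number of genes that meet the rule depended on its limits: it was 296 with an age ratio of at least 2, 19 with at least 4, 131 with a floor of 50 normalized units, 73 with HE within 2-fold of wild type at 50 dpf and 102 with no such limit. It was 32 with a floor of 500 and 40 on CPM, and it lay between 39 (without HE replicate 1 at 50 dpf) and 65 (without HE replicate 3 at 50 dpf) when a library was left out. The count of genes differing between the genotypes at 8 mpf, 20 as reported, was 19 to 23 over the 10 other settings and 18 to 24 with 1 library left out, the highest without wild-type replicate 2 at 8 mpf. The 12 higher in HE became 11 to 14 and 11 to 16, and the 8 lower became 7 to 12 and 7 to 11. The 107 listed genes lower in both genotypes became 87 to 133 and 93 to 108. No gene reversed its direction. Of 440 settings for the 20 called genes, 12 lost the call, all for CCM2L, GAMT, si:dkey-239h2.3 or si:dkey-245n4.2; the cause was not tested. Library size alone moved the median of all genes between the ages in HE to 0.23 on the log2 scale, where the smallest age difference of the 45 genes was -1.35. With the replicate number as a block, 21 genes were called. The labels do not say that numbers pair libraries, 3 of 18 same-number correlations passed 0.1 (range -0.16 to 0.14) and 7 of 12 libraries correlated best with their own number. Depth limits CPA1 most, with 4 counts in its lowest library.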
